A study of Caenorhabditis elegans with 2 samples.

Results

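The let-7 family is a group of microRNAs (miRNAs, small RNAs that pair with messenger RNAs and repress them) that times larval development in the nematode Caenorhabditis elegans. Its members were taken by name from the deposited table: cel-let-7, cel-miR-48, cel-miR-84, cel-miR-241, cel-miR-793, cel-miR-794 and cel-miR-795 (written below without the species prefix), with every arm of their hairpins. The 7 hairpins gave 13 of the 375 mature miRNA loci in the table, 7 from the 5p arm or from the single arm annotated for mir-793, and 6 from the 3p arm. Small RNA was sequenced from whole worms of the wild-type strain N2, with age given as Day 1, that received enoxacin or vehicle. Both groups share strain, age and source, and differ by the agent, whose dose and duration the labels do not state. Each group was represented by 1 library. Enoxacin is a fluoroquinolone antibiotic known in mammalian cells to bind a partner of Dicer and to promote miRNA processing, and the comparison addressed which mature miRNAs differ in abundance after it.

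In each hairpin of the family the 5p strand is the one known to carry the family's seed, the stretch near the 5′ end that selects targets. let-7 is required for the switch from larval to adult fates in the skin and acts largely through repression of lin-41. miR-48, miR-84 and miR-241 are known to act together earlier, repressing hbl-1 so that early larval fates are not repeated. lin-4 and its relative miR-237 form the other family of timing miRNAs, and lin-4 represses lin-14 and lin-28. The LIN-28 protein is in turn known to block the maturation of let-7.

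The vehicle library held 10698845 reads in total and the enoxacin library 8787665 by the authors' scaling, and levels are given in RPM, the count scaled to that total. miRNA loci took 400555 and 332407 of these reads, 3.74% and 3.78%. Replicate error could not be estimated from 1 library in each group, and no p-value was computed. The 95% intervals given with the values are exact and hold counting error alone. A locus with at least 20 reads over both libraries was compared (152 of 375). It was counted as higher or lower in enoxacin when its log2 ratio passed 1.5-fold and its interval excluded a ratio of 1.

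The loci lie on chromosomes X, V and I (positions as deposited, build ce10 per the submitters' processing notes). let-7-5p is at X, 14744165 to 14744186, minus strand, miR-84-5p at X, 16022376 to 16022399, minus strand, and miR-793 at X, 13857949 to 13857970, plus strand. miR-48-5p (V, 14364457 to 14364479) and miR-241-5p (V, 14366233 to 14366253) share the minus strand, with 1708 bases between the outermost loci of their hairpins. miR-795-5p (I, 12594573 to 12594596) and miR-794-5p (I, 12595694 to 12595715) share the plus strand, with 1060 bases between. The mature 5p forms are 21 to 24 nucleotides long. In the WBcel235 annotation, used here by name only, none of the 7 hairpins overlaps another annotated gene. The longer primary transcript of let-7 overlaps the protein-coding gene C05G5.7 on the same strand and the non-coding RNA gene C05G5.8 on the opposite strand.

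The family as a whole was present at nearly the same level in both libraries. Its 5p reads summed to 7721 in vehicle (722 RPM) and to 6762 in enoxacin (769 RPM), which is a ratio of 1.07 (1.03 to 1.10). Their share of all miRNA reads was 1.93% (1.89 to 1.97%) with vehicle and 2.03% (1.99 to 2.08%) with enoxacin. The direction of this small difference depended on the scaling, since the log2 ratio of 0.093 became -0.053 when libraries were scaled by the median of ratios, which lowered all log2 ratios by 0.15. Without let-7-5p the summed ratio was 0.990 (0.955 to 1.03), and without miR-48-5p and miR-241-5p it was 1.16 (1.12 to 1.21). In whole worms, fewer cells of a type and less RNA per cell cannot be told apart.

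The members differed widely in level. miR-84-5p was the most abundant in both libraries, at 348 RPM (337 to 359) with vehicle and 370 RPM (358 to 383) with enoxacin. miR-48-5p came next, with 219 RPM (210 to 228) and 194 RPM (185 to 203), and let-7-5p had 112 RPM (106 to 118) and 166 RPM (158 to 175). miR-241-5p, from the same cluster as miR-48, was several-fold below its neighbour, at 32.4 RPM (29.1 to 36.0) and 28.9 RPM (25.5 to 32.7). The late-numbered members were rare: miR-793 had 7.66 and 6.49 RPM, miR-794-5p 1.22 and 2.504 RPM, and miR-795-5p 1.59 and 1.71 RPM. These are levels of reads counted at mature loci, and they were not divided by length. Counts per locus do not show whether each read covers the mature form end to end. The counting intervals of neighbours in this order did not overlap in either library, with the exception of miR-794-5p and miR-795-5p, which overlapped in both and exchanged places. Among all 375 loci, miR-84-5p ranked 22 in both libraries and miR-48-5p 28 in both. let-7-5p ranked 35 in vehicle and 31 in enoxacin, while miR-241-5p ranked 53 and 57.

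**Figure D1:**
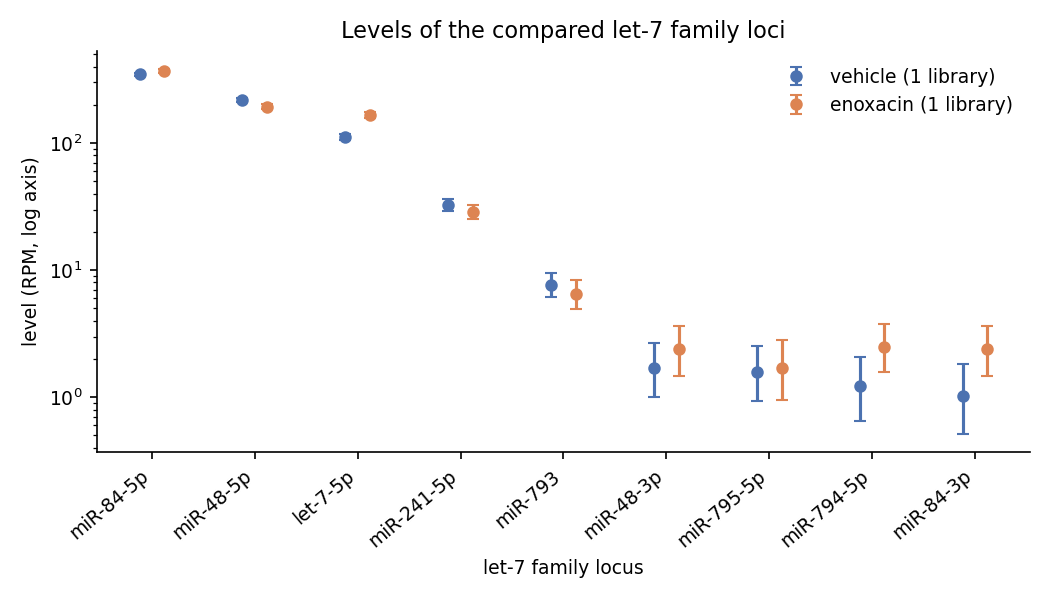
Level of each compared let-7 family locus in RPM (log axis) in the vehicle and the enoxacin library; points are single libraries and bars exact 95% Poisson intervals. let-7-5p is the abundant member whose intervals lie apart most visibly, at 112 RPM in vehicle and 166 RPM in enoxacin, while miR-84-5p leads in both.

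Of the 13 family loci, 9 reached the minimum of 20 reads: all 7 of the 5p or single-arm loci, and the 3p arms miR-48-3p and miR-84-3p. By the criterion 1 of the 9 was higher in enoxacin (miR-84-3p), 0 were lower and 8 were neither. Among all 152 compared loci 13.2% were higher and 7.89% lower, so 1 of 9 is near the background share. The median ratio of the 9 was 1.07, beside 1.09 for all 152 loci, whose quartiles were 0.884 and 1.35. At any fold, the interval lay above 1 for 3 family loci (let-7-5p, miR-84-5p and miR-84-3p) and below 1 for 1 (miR-48-5p). With median-of-ratios or TMM scaling it lay above 1 for 1 (let-7-5p) and below 1 for 2 (miR-48-5p and miR-241-5p). By the authors' scaling, 32.2% of all compared loci had an interval above 1 and 17.1% one below 1. These shares were not computed with the other scalings.

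let-7-5p, the founding member, was read 1198 times in the vehicle library and 1458 times in the enoxacin library. Its ratio was 1.48 (1.37 to 1.60), ranking 30 of 152 from the highest, and it missed the 1.5-fold threshold. Its log2 ratio was 0.57, and 0.42 with median-of-ratios scaling. Of the 60 loci with at least 500 reads, whose ratios had quartiles of 0.890 and 1.30, 8 had a higher ratio than let-7-5p.

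The trio that acts before let-7 stood on both sides of a ratio of 1. For miR-48-5p the counts were 2343 (vehicle) and 1703 (enoxacin), giving a ratio of 0.885 (0.831 to 0.942). miR-241-5p had 347 and 254 reads, a ratio of 0.891 (0.755 to 1.05). The clustered pair thus had nearly equal ratios, with 0.886 (0.835 to 0.939) for the sum. miR-84-5p, encoded on another chromosome, had 3721 and 3253 reads and a ratio of 1.06 (1.02 to 1.12), a direction that turned with median-of-ratios and TMM scaling (log2 ratios of -0.06 and -0.05, against 0.09).

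The rare members were less precisely measured. For miR-793 the counts were 82 (vehicle) and 57 (enoxacin), giving a ratio of 0.846 (0.593 to 1.20). miR-794-5p had 13 and 22 reads, and its ratio of 2.06 had an interval from 0.993 to 4.45. miR-795-5p, its cluster partner, had 17 and 15 reads and a ratio of 1.07 (0.4996 to 2.29). The intervals of all 3 included 1.

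**Figure D2:**
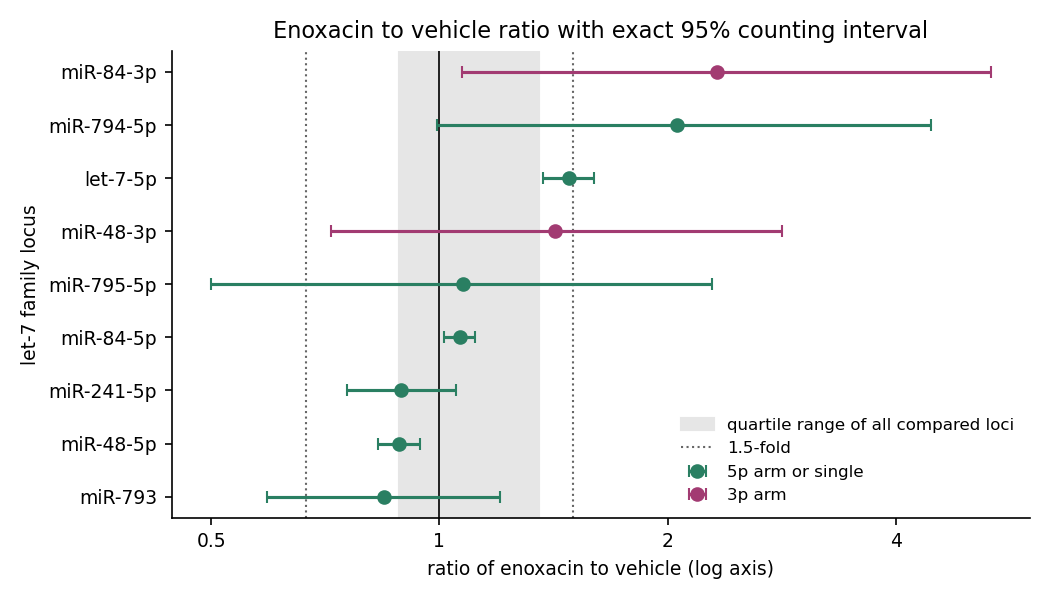
Ratio of enoxacin to vehicle (log axis) for the 9 compared let-7 family loci with exact 95% counting intervals; the shaded band runs between the quartiles of all 152 compared loci and dotted lines mark 1.5-fold. let-7-5p lies at 1.48, between the band and the threshold, while miR-48-5p and miR-241-5p lie together at 0.885 and 0.891.

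The make-up of the family differed between the libraries, and this comparison does not depend on how they are scaled. Of the family's 5p reads, let-7 took 15.5% (14.7 to 16.3%) with vehicle and 21.6% (20.6 to 22.6%) with enoxacin. miR-48 took 30.3% in vehicle (29.3 to 31.4%) and 25.2% in enoxacin (24.2 to 26.2%). For both of these the intervals of the libraries did not overlap. miR-84 took 48.2% (47.1 to 49.3%) and 48.1% (46.9 to 49.3%), and these intervals overlapped almost fully. miR-241 took 4.49% (4.04 to 4.98%) and 3.76% (3.32 to 4.24%), with overlapping intervals. miR-793 had 1.06% and 0.843%, miR-794 0.168% and 0.325%, and miR-795 0.220% and 0.222%, all overlapping. A share falls when another rises, so these shares show unequal ratios within the family and not which miRNA differed.

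**Figure D3:**
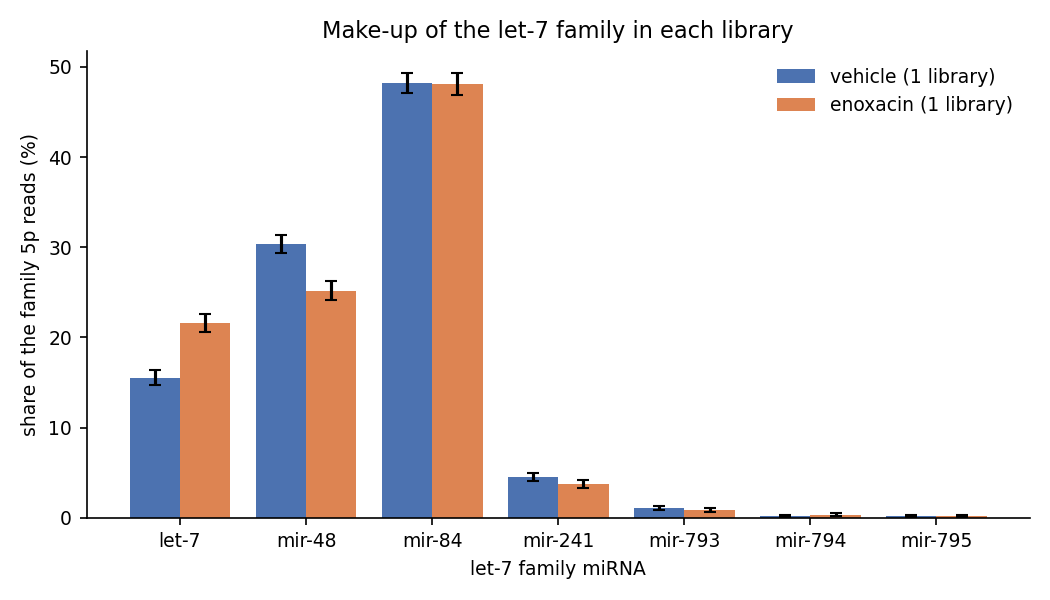
Share of the let-7 family's 5p reads (%) taken by each miRNA in the vehicle and the enoxacin library; bars start at 0 and error bars are exact 95% binomial intervals. let-7 takes 15.5% in vehicle and 21.6% in enoxacin, miR-48 takes 30.3% and 25.2%, and miR-84 takes 48.2% and 48.1%.

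Pairs of members were then set against each other within each library. The 5 members with at least 100 reads form 10 pairs, and for 6 of them the counting interval of the quotient's change excluded 1. The same count was not made for pairs of loci outside the family, so 6 of 10 has no background share. Single loci often had an interval that excluded 1: of all 152 compared, 32.2% had one above 1 and 17.1% one below 1. These intervals hold counting error alone, and error between replicates could not be estimated. All 4 pairs with let-7-5p were among the 6. There were 0.511 reads of let-7-5p per read of miR-48-5p in vehicle and 0.856 in enoxacin, a change of 1.67-fold (1.52 to 1.85). Against miR-241-5p the change was 1.66-fold (1.38 to 1.997), against miR-793 1.75-fold (1.22 to 2.52) and against miR-84-5p 1.39-fold (1.27 to 1.52). The other 2 of the 6 were miR-84-5p against miR-48-5p, with 1.20-fold (1.11 to 1.30), and against miR-241-5p, with 1.19-fold (1.01 to 1.42). The quotient of miR-241-5p to miR-48-5p was 0.148 in vehicle and 0.149 in enoxacin, a change of 1.01-fold (0.843 to 1.20). The pairs share members and are not independent of each other.

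**Figure D4:**
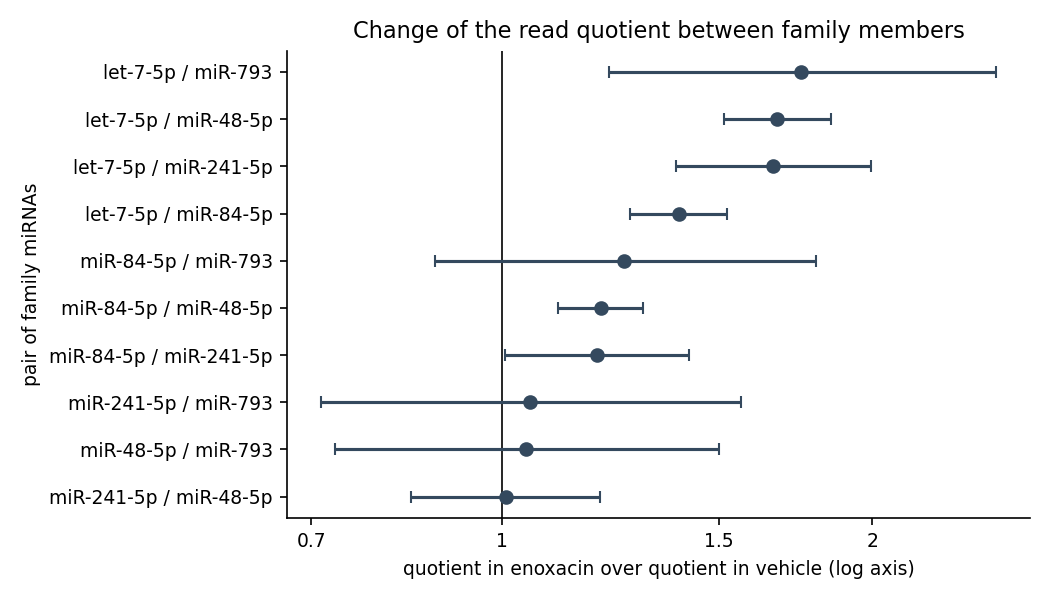
Change of the read quotient between members of the let-7 family, given as the quotient in enoxacin over that in vehicle (log axis), with exact 95% conditional intervals for all 10 pairs of the 5 members with at least 100 reads. The 4 pairs with let-7-5p are the uppermost, from 1.39 to 1.75, and miR-241-5p to miR-48-5p sits at 1.01.

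The 3p arms are the strands of these hairpins that are mostly degraded, and they were rare in both libraries. miR-84-3p was read 11 times with vehicle and 21 times with enoxacin, for a ratio of 2.32 (1.07 to 5.34), the single family locus that met the criterion. With median-of-ratios or TMM scaling its interval included 1. miR-48-3p had 18 and 21 reads (ratio 1.42, 0.721 to 2.83). miR-241-3p had 2 and 5 reads and let-7-3p 0 and 2, both under the minimum. miR-794-3p and miR-795-3p had 0 reads throughout, and 3 counts per library set the upper limits of 0.280 RPM (vehicle) and 0.341 RPM (enoxacin).

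The 4 detected 3p arms each had more reads in enoxacin, in the library with the smaller total. Of these, let-7-3p and miR-241-3p were under the minimum, and only the interval of miR-84-3p excluded 1. The same count was not made over all loci, so no family pattern is read from it. Over the 6 hairpins with both arms annotated, 3p arms took 31 of 7670 reads in vehicle, 0.404% (0.275 to 0.573%), and 49 of 6754 in enoxacin, 0.725% (0.537 to 0.958%). The quotient of 3p to 5p reads was thus 1.80-fold larger in enoxacin (1.12 to 2.93). Without mir-84 it was 1.59-fold larger with an interval from 0.862 to 2.98, from 20 and 28 reads of the 3p arms. The 5p strand made up nearly all reads of the abundant hairpins in vehicle and enoxacin: 99.7% and 99.4% for mir-84, 99.2% and 98.8% for mir-48, and 99.4% and 98.1% for mir-241. For let-7 it made up 100% in vehicle (99.7 to 100%) and 99.9% in enoxacin.

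The 2 family hairpins with both arms compared can be set beside the rest of the table. The log2 ratio of the minor arm exceeded that of the major arm by 0.68 for mir-48 and by 1.10 for mir-84. Among the 47 other such hairpins the minor arm had the higher ratio in 12 and the lower ratio in 35, with a median difference of -0.34. Of these 47, 5 had a difference at or above that of mir-48. The arm with the lower count summed over the libraries was called minor, and the family values rest on 39 and 32 reads.

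**Figure D5:**
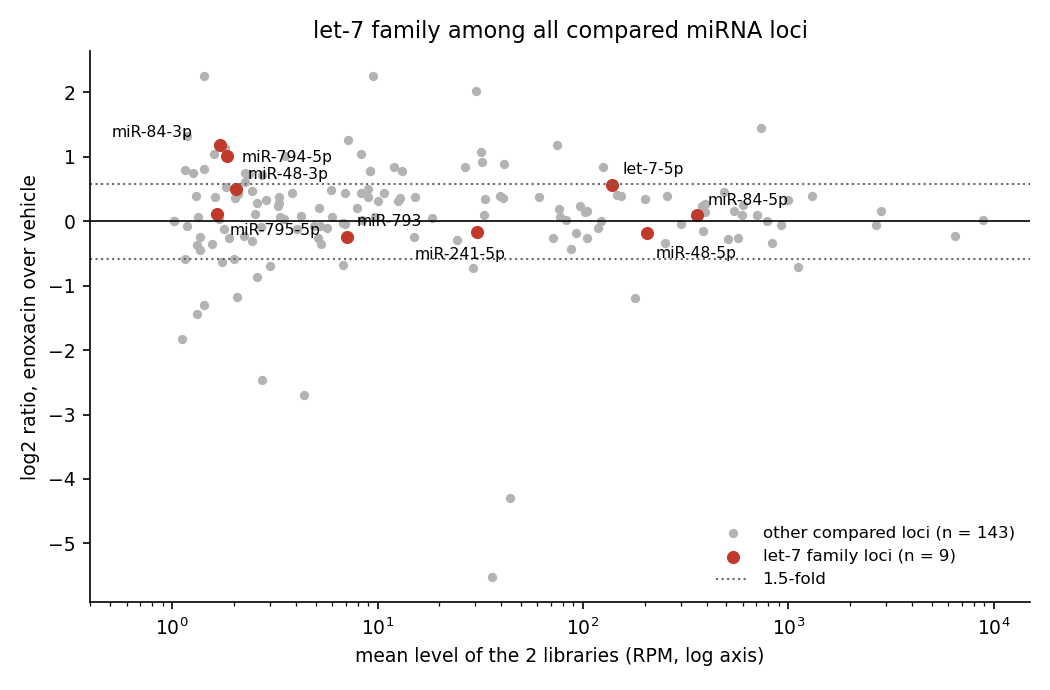
Log2 ratio of enoxacin to vehicle against mean level (RPM, log axis) for the 152 compared miRNA loci, with the 9 let-7 family loci in red and dotted lines at 1.5-fold. The family lies within the cloud of the other 143 loci; miR-84-3p (log2 ratio 1.19) and miR-794-5p (1.02) are past the line among the loci of few reads, and let-7-5p (0.57) is just under it.

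The 5p arms of the other timing miRNAs had ratios between those of miR-84-5p and let-7-5p. Of the 4 loci of lin-4 and mir-237, 3 were compared and 0 were higher or lower. Among all 152 compared loci 13.2% were higher and 7.89% lower, so 0 of 3 does not set these miRNAs apart. lin-4-5p was at 347 RPM with vehicle and 410 RPM with enoxacin, a ratio of 1.18 (1.13 to 1.24). miR-237-5p had 53.4 and 69.0 RPM (ratio 1.29, 1.15 to 1.45), and lin-4-3p had 45 and 34 reads (0.920, 0.571 to 1.47). The quotient of let-7-5p to lin-4-5p was 0.323 in vehicle and 0.404 in enoxacin, a change of 1.252-fold (1.14 to 1.37). That of miR-48-5p to lin-4-5p was 0.632 and 0.472, a change of 0.748-fold (0.691 to 0.808). Against miR-237-5p the change for let-7-5p was 1.15-fold, with an interval of 0.997 to 1.32.

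Loci outside the family with the most similar levels were found by distance in log2 RPM over the 2 libraries. Nearest to let-7-5p were miR-40-3p (distance 0.17), with 126 and 167 RPM, and miR-64-5p (0.26), with 133 and 175 RPM. Nearest to miR-84-5p were lin-4-5p (0.15) and miR-38-3p (0.20), and nearest to miR-48-5p were miR-86-5p (0.38) and miR-42-3p (0.41). miR-90-3p (0.24) and miR-61-3p (0.40) were nearest to miR-241-5p, and miR-245-3p (0.15) and miR-248 (0.17) to miR-793. With 2 libraries this likeness reflects level more than any pattern.

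miRNAs that mark other stages and tissues were read beside the family. The embryonic mir-35 to mir-42 list, with reads at 16 of 16 loci, had summed levels of 5666 and 5355 RPM, a ratio of 0.945 (0.934 to 0.957). Its members lay on both sides of 1: of 14 compared, 1 was higher (miR-37-5p) and 1 lower (miR-38-5p). Among all 152 compared loci the shares were 13.2% higher and 7.89% lower. Within the list miR-36-3p, the most abundant, was at 0.964, miR-35-3p at 0.795 and miR-40-3p at 1.32. The muscle list (mir-1, 2 of 2 loci with reads) had 409 and 370 RPM. The list for epidermis and glia (mir-228, 2 of 2) had 123 RPM in each library, a ratio of 1.00 (0.925 to 1.09). The neuronal list (2 of 3 loci with reads, lsy-6 at 0) had 16.3 and 13.9 RPM. The intestinal list (mir-60, 2 of 2) was at 47.2 RPM with vehicle and 104 RPM with enoxacin, a ratio of 2.21 (1.98 to 2.47). This sum was nearly all miR-60-3p, with 488 and 907 reads (ratio 2.26), while miR-60-5p had 17 and 10 reads (0.716, 0.293 to 1.66). The part of tissue or stage make-up in the family's values was not tested.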

How the data were processed

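Per the labels' protocols, total RNA was extracted with TRIzol (integrity numbers above 9), 10 µg per group was enriched for small RNA, and a SOLiD kit was used for the libraries. The series text names 3 independent experiments, without saying whether they were pooled. The submitters' processing notes name Bowtie2, bedtools and build ce10; versions, filters, strand use and the treatment of multiply matching reads are not stated in the sources used here. Raw read counts per mature miRNA locus were deposited. The authors also deposited RPM values, which are the counts divided by 1 fixed total per library, and the totals were recovered from these columns. The authors' deposited ratio, and its log2 without a pseudocount, equalled those recomputed from the counts at every locus with reads in both libraries. The table's control column was read as the vehicle sample, whose description names control worms.

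Ratios carry exact conditional binomial (Clopper-Pearson) intervals, levels exact Poisson intervals, shares exact binomial intervals, and quotients exact conditional odds ratio intervals. The log2 ratios reported here are not the deposited ones, since they used a pseudocount of 0.5 reads. No source mentions molecular identifiers, so reads may be copies of 1 molecule, and intervals and floors cover counting error only. The ratio, interval and criterion were checked on simulated counts that held counting error only. That check therefore does not cover error between replicates or copied reads. A single read equals 0.0935 RPM (vehicle) or 0.114 RPM (enoxacin). The named miRNAs are all family loci, lin-4 and mir-237, the marker lists, and for each 5p locus with at least 100 reads the 2 nearest other loci. Members and lists were chosen with earlier results of these data known, and the quotients between miRNAs, the summed 3p to 5p quotient and the comparison of minor with major arms were added after the values were seen. All 7 hairpins matched the annotation by name. Alternatives were scaling by median of ratios, TMM (edgeR 4.0.16), the sum of the miRNA table or totals without the 3 most abundant miRNAs, other minimums, thresholds and pseudocount, and summed arms. Python 3.11.15, numpy 2.4.6, pandas 2.3.3, scipy 1.17.1 and R 4.3.3 were used.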

Additional observations from a re-analysis of the deposited data

How the results depend on the processing

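No paired analysis was possible because each group has 1 library, and none could be left out. The summed 5p reads of the family had a log2 ratio of 0.093, which became -0.053 with median-of-ratios and -0.044 with TMM scaling, -0.015 with let-7 left out and 0.22 with mir-48 and mir-241 left out. Scaling by median of ratios and TMM moved all log2 ratios by -0.15 and -0.14. The count of family loci higher was 1; it was 0 with either of these scalings, with a minimum of 100 reads or with arms summed per hairpin, and 2 at the lower alternative threshold, where let-7-5p was added. It stayed at 0 lower under every setting run. Over all loci, 20 were higher and 12 lower of 152 compared. With median-of-ratios scaling 17 were higher and 14 lower of 152, and TMM scaling gave the same counts. A minimum of 100 reads gave 15 higher and 6 lower of 93. The threshold of 2 gave 12 higher and 9 lower, and the lower one 35 and 15. Arms summed gave 13 higher and 7 lower of 103 hairpins. The family had 9 loci compared with these scalings, 5 with a minimum of 100 reads and 7 hairpins with arms summed. The 3p to 5p quotient of 1.80 was 1.59, with an interval including 1, without mir-84, an alternative added after seeing the data. Of 52 values of single loci under alternatives, 44 kept their call and stayed within their interval. Another 6 moved outside it (let-7-5p, miR-84-5p and miR-48-5p, with median-of-ratios and TMM scaling) and 2 lost the call (miR-84-3p, same scalings). Each of these scalings lowers every log2 ratio by the constant given above, so these moves follow from that shift. Why the scalings differ was not tested. let-7-5p ranged from 0.42 to 0.57. All 14 shares stayed within their intervals with both arms counted. Depth limits the 4 family loci under 20 reads and the 3p arms.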
